A study of Mus musculus with 24 samples.

Results

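Solute carriers are the membrane proteins, numbered in families from Slc1 upward, that move amino acids, sugars, ions, metals, nucleosides, vitamins and metabolites across cell and organelle membranes. Every probe set whose platform annotation named a single gene with a solute carrier family symbol was taken, leaving out the Slc2a glucose carriers. This gave 136 genes of the 8251 named by such probe sets, read by 166 of the 12422 probe sets tested. Of the 136, 111 had 1 probe set and 25 had more. The symbol rule also takes in 3 probe sets for scaffold and adaptor proteins that bind carriers and carry nothing themselves. No filter on dim signal was applied, and 40 of the 166 probe sets had a mean signal below 145.7, the level that 25% of all probe sets fell under.

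The arrays measured RNA from whole uteri of ovariectomized wild-type mice and of PRKO mice, the progesterone receptor knockout. Both genotypes had their ovaries removed at 6 weeks of age, and 2 weeks later received progesterone (P4, 1 mg per mouse in sesame oil) or the sesame oil vehicle alone. Uteri were taken 4 h after 1 injection, or 4 h after the last of 4 injections given 12 h apart, a time called 40 h. Each of the 8 groups of genotype, treatment and time had 3 arrays. The uteri of 5 mice went into each pool of RNA. Nothing in the labels tells separate pools from repeat arrays of one pool within a group, so p-values measure only the spread between arrays. All mice lacked ovarian hormones, so vehicle uteri had neither ovarian estrogen nor ovarian progesterone. In whole tissue, fewer cells of a type and less RNA per cell cannot be told apart.

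The progesterone receptor is a ligand-activated transcription factor that binds DNA at pairs of a hexamer, AGAACA and its reverse complement TGTTCT, an element shared with the glucocorticoid, mineralocorticoid and androgen receptors. In the uterus, carriers in the epithelium set the ions, water and nutrients of the luminal fluid, and carriers in stroma and muscle feed growth and differentiation under steroid control.

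Wild-type uteri showed a small early response of a few carriers and no late one that passed the test. At 4 h, P4 raised the copper importer Slc31a1, the nucleoside carrier Slc29a1 and the fatty acid carrier Slc27a2, and lowered the peptide carrier Slc15a2. At 40 h none of the 166 passed, and the lowest was the glutamine carrier Slc1a5. In PRKO uteri none passed at either time, but none of the 166 passed the test of a genotype difference in the P4 effect. The wild-type calls at 4 h also rested on few arrays. None passed when the arrays of 4 h were fitted alone, and 0 to 4 passed with each array left out. The values behind these statements follow, beginning with the DNA in front of the genes that passed at 4 h.

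The upstream sequences of the genes with 1 listed start and a change at 4 h are shown so that the receptor's hexamer can be looked for. They are from RefSeq, build GRCm38.p6, and each runs over the 250 bases before the start site, 5′ to 3′ on the gene's strand. Capitals mark a match to AGAACA on either strand. Slc31a1 lies at chr4:62360451-62360700 on the plus strand, Slc27a2 at chr2:126552774-126553023 on the plus strand, and Slc15a2 at chr16:36784963-36785212 on the minus strand.
Slc31a1: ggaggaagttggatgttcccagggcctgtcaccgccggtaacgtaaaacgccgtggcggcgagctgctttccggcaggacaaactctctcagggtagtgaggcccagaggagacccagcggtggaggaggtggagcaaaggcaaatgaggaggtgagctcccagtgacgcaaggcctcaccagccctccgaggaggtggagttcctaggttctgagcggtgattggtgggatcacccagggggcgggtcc
Slc27a2: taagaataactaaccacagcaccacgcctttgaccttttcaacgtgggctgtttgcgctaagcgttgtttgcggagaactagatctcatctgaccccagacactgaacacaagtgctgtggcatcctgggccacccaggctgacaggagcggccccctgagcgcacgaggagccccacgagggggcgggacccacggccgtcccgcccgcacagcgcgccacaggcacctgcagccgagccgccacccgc
Slc15a2: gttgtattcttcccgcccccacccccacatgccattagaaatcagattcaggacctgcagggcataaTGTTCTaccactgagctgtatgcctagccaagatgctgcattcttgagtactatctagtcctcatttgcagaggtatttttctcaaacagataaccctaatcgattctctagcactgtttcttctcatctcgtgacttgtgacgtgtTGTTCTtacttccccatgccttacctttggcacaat
The Slc15a2 window held 2 matches, both written TGTTCT on this strand, starting at −183 and −36 counted from the start site. The Slc31a1 and Slc27a2 windows held none. Slc29a1 has 8 listed starts, and 1 of those 8 windows held a match. Of all 32851 upstream windows in the table, 5284 held at least 1 match (16.1%), and of the 161 windows of 111 solute carrier genes, 23 did (14.3%). The full element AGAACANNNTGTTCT, searched on both strands and overlapping the hexamer search, was in 3 of all windows and in 0 of the solute carrier windows. A match in these letters is a description of the sequence, and a window without one says only that the letters are not within it.

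Signals are the deposited array intensities brought to a 2%-trimmed mean of 500 on each array, in arbitrary units. Differences are log2 fold changes of signal plus 32, ± their standard error, so the change of dim genes is understated. They were tested with limma over all 12422 probe sets, with Benjamini-Hochberg adjustment and a threshold of 0.05. Signals of different probe sets cannot be set against each other. Median signals of the 24 arrays lay between 323.2 and 342.6. The 1 probe set of the deleted gene, Pgr, was dim and overlapped between the genotypes, at 102.8 to 169 on the 12 wild-type and 110.2 to 139 on the 12 PRKO arrays, and whether it lies in the deleted part is not known, so it does not settle the genotype labels. Replicate 2 of wild-type vehicle and replicate 2 of wild-type P4 at 4 h stood apart in the ratio of the 3′ to the 5′ Gapdh control probe set, a sign of RNA quality, at 3.675 and 3.248 against 1.235 to 1.859 on the other 22 arrays. In the same ratio for actin they did not stand apart, at 1.416 and 1.298 within a range of 1.112 to 1.963 over all arrays. The Gapdh and actin controls therefore disagree on these arrays.

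In wild-type uteri at 4 h, 4 of the 166 probe sets passed (2.41%), against 0.708% of all probe sets tested. Of these, 3 were higher and 1 lower, where 0.523% and 0.185% of all probe sets were. At an unadjusted p below 0.05 there were 20 of 166, or 12.0%, against 6.23% of all. The 3 P4 arrays did not overlap the 3 vehicle arrays in 11 probe sets that were higher and 9 that were lower, 12.0% of the 166. Of all probe sets, 3.65% were apart on the higher and 3.01% on the lower side, 6.67% together. The family had no common direction, since its median log2 fold change was −0.003 against 0.001 for all probe sets, with a range from −0.49 to 0.48.

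Slc31a1 is the high-affinity carrier that brings copper into cells. Its signal in wild-type vehicle arrays at 4 h was 364.8, 333.1 and 398.3, and in P4 arrays 588.6, 540.8 and 438.7. All 3 P4 arrays were above all 3 vehicle arrays, although the lowest P4 array was close to the highest vehicle array. The log2 fold change was 0.47 ± 0.09, a 1.39-fold rise (limma, adjusted p = 0.0124). In PRKO uteri the signal was 431.5, 399.4 and 386.1 with vehicle and 447.2, 371.6 and 391.1 with P4, and the groups overlapped. The PRKO difference was −0.01 ± 0.09, and the wild-type effect exceeded it by 0.49 ± 0.13, which did not pass (adjusted p = 0.389). By 40 h the wild-type difference was −0.06 ± 0.09. A second probe set of the gene gave 393.4, 497.3 and 384.5 with vehicle and 530.5, 574.3 and 420.9 with P4, which overlapped, and its difference of 0.24 ± 0.10 did not pass (adjusted p = 0.604).

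Slc29a1 encodes an equilibrative nucleoside carrier, which lets adenosine and other nucleosides cross the plasma membrane down their gradient. Wild-type signal at 4 h was 1257, 1207 and 1647 with vehicle and 1948, 1943 and 1805 with P4. The groups did not overlap, and vehicle replicate 3 was nearest to the P4 arrays. The rise was 0.47 ± 0.10, or 1.39-fold (adjusted p = 0.0301). PRKO arrays were also separate, at 1143, 1400 and 1407 with vehicle and 1459, 1460 and 1612 with P4, but their difference of 0.20 ± 0.10 did not pass (adjusted p = 1). Of the 4 genes, Slc29a1 therefore had the smallest gap between genotypes, 0.28 ± 0.15 (adjusted p = 1). At 40 h the wild-type difference was −0.04 ± 0.10, and a second probe set at 4 h gave 0.11 ± 0.10.

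Slc27a2 encodes a very long chain acyl-CoA synthetase that also takes up fatty acids. Its signal was dim, with a mean at percentile 26.8 of the array, yet its replicates were close. Wild-type vehicle arrays at 4 h gave 178.5, 183.3 and 173.3, and P4 arrays 219.6, 233.9 and 243. The groups stood well apart, and the rise was 0.33 ± 0.06, or 1.26-fold (adjusted p = 0.0129). PRKO arrays gave 137.2, 151.6 and 150.7 with vehicle and 144.8, 131.1 and 129.5 with P4, a difference of −0.10 ± 0.06. The difference between the genotypes in the P4 effect was 0.42 ± 0.09 (adjusted p = 0.0726), the lowest adjusted p of any of the 166 for that test, and it did not pass. All 3 PRKO vehicle arrays lay below all 3 wild-type vehicle arrays at 4 h, by −0.24 ± 0.06 (adjusted p = 0.266). At 40 h wild-type signal was 153.3, 138.3 and 146.9 with vehicle and 134.4, 141.8 and 142.6 with P4, so both groups were near the PRKO level.

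Slc15a2, the proton-coupled carrier of short peptides, was the member that fell. Wild-type vehicle arrays at 4 h gave 425.1, 512.4 and 424.8, and P4 arrays 338.6, 285.3 and 371.2. Every P4 array was below every vehicle array, and the change was −0.42 ± 0.09, or 0.747-fold (adjusted p = 0.0333). PRKO arrays overlapped, at 488.9, 579.2 and 537.6 with vehicle and 536.1, 470.1 and 537.4 with P4, a difference of −0.05 ± 0.09. The genotype difference in the effect was −0.37 ± 0.13 (adjusted p = 0.913). At 40 h the wild-type arrays again did not overlap, at 494.5, 492.4 and 499.2 against 486.1, 419.3 and 489.4, but the gap was −0.09 ± 0.09 (adjusted p = 0.79). Slc15a2 was the single member whose wild-type groups were apart in the same direction at both times, as 1.24% of all probe sets were.

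**Figure D1:**
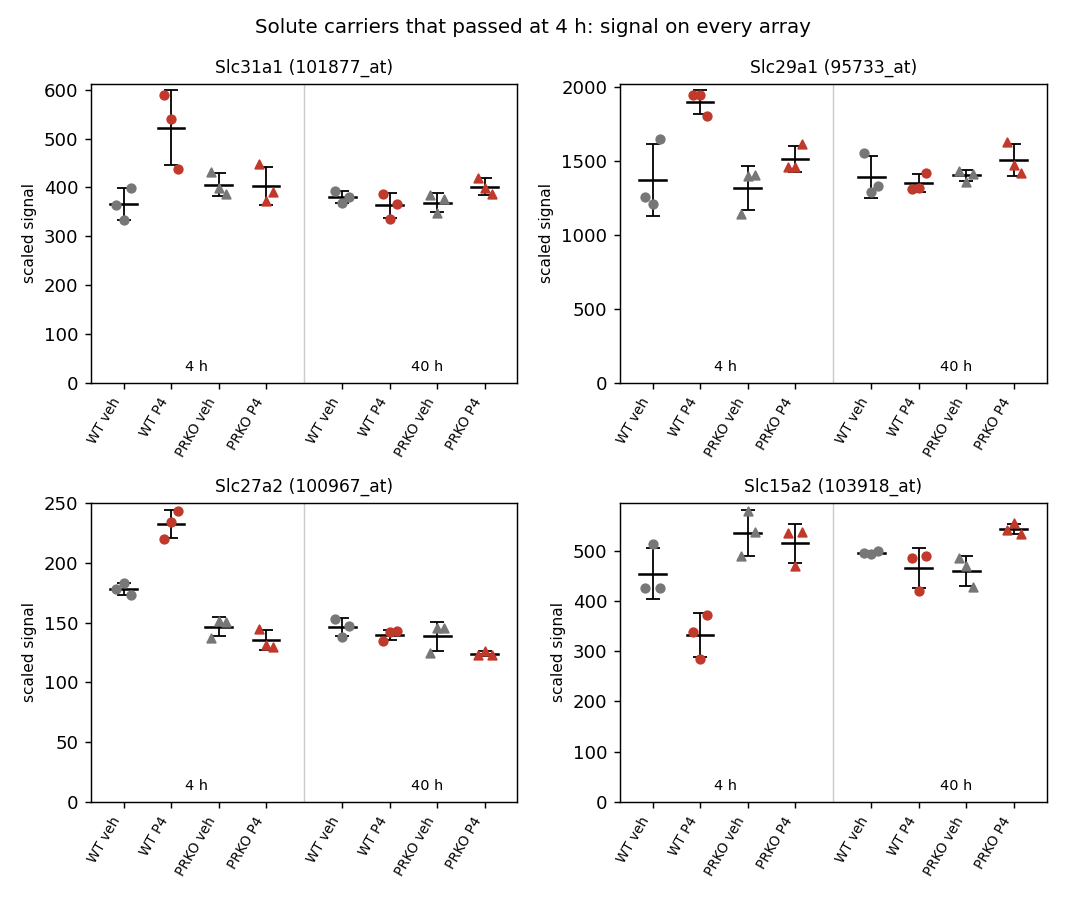
Scaled signal (arbitrary units, from 0) of the 4 probe sets that passed at 4 h, on each of the 24 arrays; circles are wild type and triangles PRKO, grey is vehicle and red P4, horizontal bars are group means and whiskers 1 SD of 3 arrays. The wild-type P4 arrays at 4 h lie above their vehicle arrays for Slc31a1, Slc29a1 and Slc27a2 and below them for Slc15a2, and at 40 h the wild-type means are close.

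These 4 calls rest on few arrays. Without the 2 arrays of high Gapdh ratio no member passed, and the changes were 0.39 ± 0.11 for Slc31a1 (adjusted p = 0.342), 0.37 ± 0.12 for Slc29a1 (adjusted p = 0.526), 0.34 ± 0.08 for Slc27a2 (adjusted p = 0.107) and −0.24 ± 0.09 for Slc15a2 (adjusted p = 0.729). All 4 kept their direction, and Slc15a2 lost the most of its size. Without P4 replicate 2 alone, or vehicle replicate 1 alone, 0 passed, and without P4 replicate 1 or vehicle replicate 2 only Slc27a2 did. Without P4 replicate 3 there were 4, and without vehicle replicate 3 there were 3, with Slc27a2 lost. Fitted on the arrays of 4 h alone, 0 passed.

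A further 3 carriers had early differences of like size that did not pass. The zinc importer Slc39a4 had the most negative value at 4 h. Its signal was 1268, 1174 and 1318 with vehicle and 926.7, 954.7 and 770.1 with P4 in wild-type uteri, with a wide gap between the groups. The difference was −0.49 ± 0.14 (adjusted p = 0.136). With the replicate number as a block over all groups the adjusted p was 0.0158, and with a block over the wild-type 4 h arrays alone, where the numbers paired the arrays, it was 0.145. A second probe set gave 0.11 ± 0.09, the opposite sign. Slc12a2, the cotransporter of sodium, potassium and chloride that drives fluid secretion, gave 1615, 1011 and 1054 with vehicle and 1974, 1644 and 1462 with P4. The groups overlapped through vehicle replicate 1, and the difference of 0.48 ± 0.17 (adjusted p = 0.501) had an adjusted p of 0.029 with the block over all groups and 0.24 with that over the wild-type 4 h arrays alone. The sodium and calcium exchanger Slc8a1 gave 1475, 1194 and 1358 with vehicle and 1085, 901.7 and 1157 with P4, a difference of −0.35 ± 0.11 (adjusted p = 0.249). Its PRKO arrays at 4 h differed in the same direction, by −0.25 ± 0.11, and its other probe sets gave −0.09 and −0.15.

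Of 9 marker lists for other cells, the endothelial sum was apart between the wild-type groups at 4 h, at 4744 to 4827 with vehicle and 4425 to 4712 with P4 (6 of 6 genes). The mean log2 signal of those genes overlapped, at 9.113 to 9.194 with vehicle and 9.073 to 9.139 with P4. The summed signal of 10 of 10 listed epithelial genes was 9621 to 11460 with vehicle and 8851 to 10510 with P4 and overlapped, while their mean log2 signal was apart, at 8.994 to 9.205 and 8.814 to 8.962. Of that list, Tspan8 fell by 0.95 on the log2 scale, and 3 of its 13 probe sets had a mean signal below 145.7. The summed signal of 9 of 11 listed adipose genes was 18640 to 22020 against 15210 to 20710 and overlapped. Their part in the changes of the 4 carriers was not tested.

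Grouped by cargo, the early differences were spread over classes. Each of the 4 that passed belonged to another class, which were metal ion carriers (1 of 23 probe sets), nucleoside and nucleotide sugar carriers (1 of 6), fatty acid and acetyl-CoA carriers (1 of 6) and the single peptide carrier. None of the 30 amino acid carrier probe sets passed, and 16 were positive and 14 negative with a median of 0.03. None of 24 mitochondrial carrier probe sets passed either, with a median of 0.01. Vitamin carriers, among them the folate carriers Slc19a1 and Slc46a1, had a median of 0.12, with 5 of 7 positive. Of 13 probe sets for neurotransmitter and vesicular carriers, 11 were negative, with a median of −0.06. These classes are described by counts alone, and 49.4% of all probe sets were negative at this time.

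**Figure D2:**
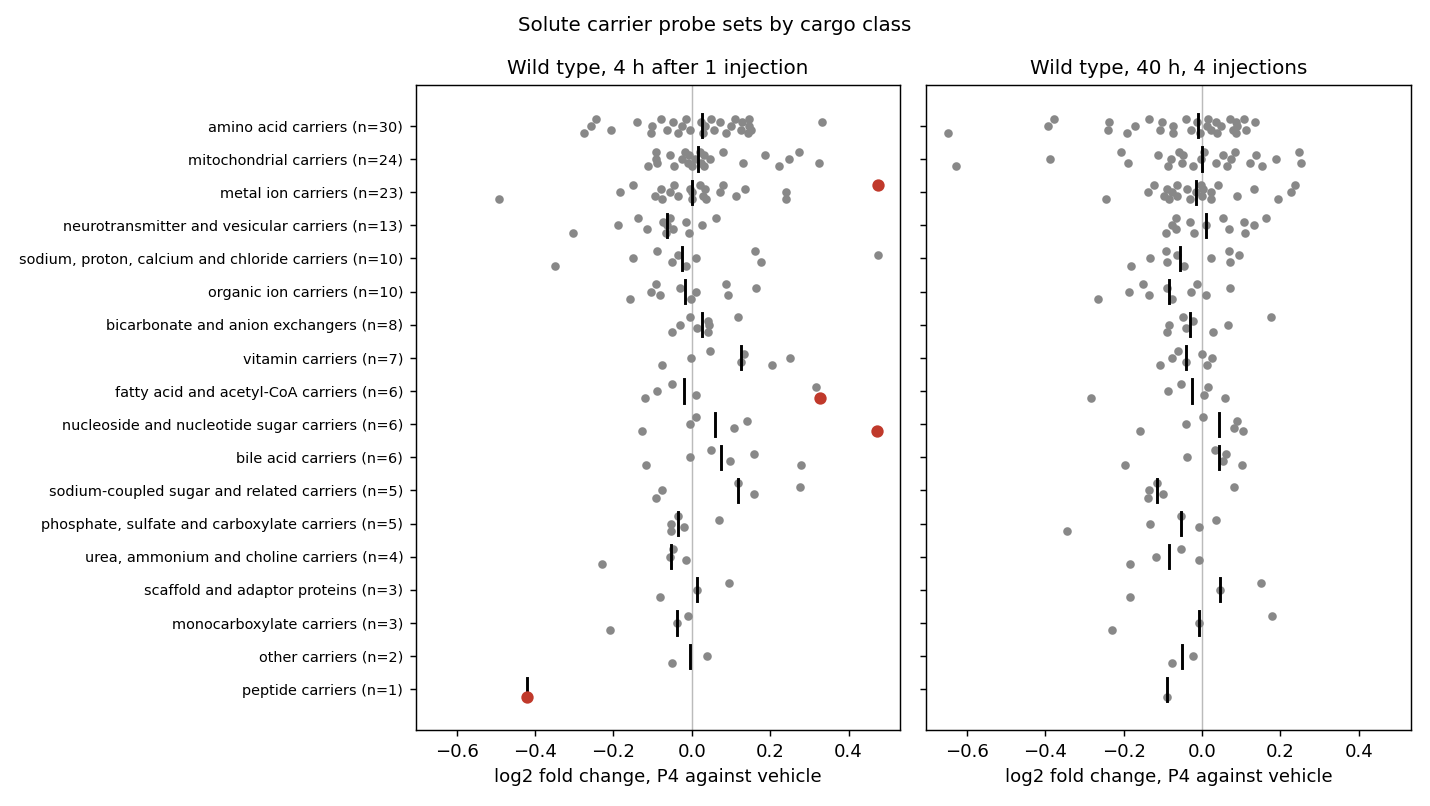
Log2 fold change of P4 against vehicle in wild-type uteri for each of the 166 probe sets, by cargo class, at 4 h (left) and 40 h (right); each point is 1 probe set, black bars are class medians and red points passed the limma test. The 4 red points at 4 h lie in 4 classes, there is none at 40 h, and most class medians lie near 0.

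At 40 h none of the 166 passed in wild-type uteri, against 1.54% of all probe sets. By limma without adjustment 15 had a p below 0.05, or 9.04%, against 11.7% of all. Groups did not overlap for 8 members that were higher and 19 that were lower, 16.3% of the family. Of all probe sets, 9.76% were apart on the higher and 10.0% on the lower side, 19.8% together. The median log2 fold change was −0.02 with a range from −0.65 to 0.25, and 57.8% of the probe sets were negative, against 49.8% of all.

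The lowest of these was Slc1a5, which exchanges glutamine and other neutral amino acids across the plasma membrane. Wild-type arrays at 40 h gave 401, 272.6 and 321.8 with vehicle and 179.9, 184.4 and 232.6 with P4. The groups did not overlap, and the mean was 331.8 ± 64.8 (SD, n = 3) against 198.9 ± 29.2. The difference was −0.65 ± 0.18, or 0.638-fold, and did not pass (adjusted p = 0.0825). PRKO arrays overlapped at 457.9, 370.6 and 363 with vehicle and 451.6, 347.5 and 397.7 with P4, a difference of 0.01 ± 0.18. At 4 h the wild-type arrays were apart in the other direction, 289.2, 354.3 and 302.6 against 417.5, 418 and 378.5, by 0.33 ± 0.18 (adjusted p = 0.907). The change from the early to the late effect was −0.98 ± 0.26 (adjusted p = 0.115). Slc1a5 was the single member with separate groups in opposite directions at the 2 times, as 0.419% of all probe sets had.

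Other late values on the lower side were those of single genes for citrate, taurine and amino acid carriage. Their classes did not lean lower as a whole. Amino acid carriers were negative in 16 of 30 probe sets, with a median of −0.01, and mitochondrial carriers in 12 of 24. Slc25a1, the mitochondrial citrate carrier that supplies the cytosol with acetyl units for lipid synthesis, had 2 probe sets. One of them gave 1488, 1393 and 1618 with vehicle and 1120, 1083 and 1212 with P4. These groups did not overlap, and the difference was −0.39 ± 0.12 (adjusted p = 0.147). The other probe set gave −0.63 ± 0.32 (adjusted p = 0.453) with vehicle arrays from 855.7 to 1445. Slc3a2, the heavy chain that carries several amino acid exchangers to the plasma membrane, was singled out after its values were seen. Its arrays gave 1685, 1487 and 1726 with vehicle and 1328, 1095 and 1334 with P4, with no overlap, and the difference was −0.38 ± 0.13 (adjusted p = 0.187). In PRKO uteri it was 0.05 ± 0.13. The taurine carrier Slc6a6 gave 1615, 2164 and 2219 with vehicle and 1624, 1326 and 1570 with P4, which overlapped, at −0.39 ± 0.21 (adjusted p = 0.505). Next lowest were the phosphate carrier Slc34a1 at −0.34, the fatty acid carrier Slc27a1 at −0.28 and the organic cation carrier Slc22a4 at −0.26.

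Adipose marker genes moved in the same arrays. The summed signal of 9 of 11 listed adipose genes was 17410 to 20020 in wild-type vehicle and 7086 to 12350 in wild-type P4 at 40 h, and 7 of their 11 probe sets fell, among them Adipoq, the gene of adiponectin, with a log2 fold change of −1.41. In PRKO uteri the sum was also lower with P4 and apart, at 18220 to 21870 with vehicle and 15180 to 17930 with P4. So was the mean log2 signal of the list, at 10.01 to 10.21 and 9.788 to 9.975. None of the 11 probe sets passed there. With the mean log2 signal of the adipose genes as a covariate, an alternative to the comparison above, the late difference of Slc1a5 was 0.01 ± 0.27. Under that covariate the Slc25a1 probe sets were at 0.16 and −0.08, and Slc3a2 at −0.24. Slc6a6 was at −0.31 in place of −0.39, and the organic cation carrier Slc22a4 at −0.25 in place of −0.26. The cystine carrier Slc7a11 was at −0.48 ± 0.155 in place of −0.24 (limma, adjusted p = 0.738). The monocarboxylate carrier Slc16a1 was at −0.44 ± 0.156 in place of −0.23 (limma, adjusted p = 0.851). The mean log2 signal used as covariate was itself apart in wild type at 40 h, at 9.912 to 10.18 with vehicle and 8.769 to 9.452 with P4. This fit therefore cannot cleanly separate the covariate from treatment. The covariate also left 0 of all probe sets called at 40 h, where 191 were called without it. Summed stromal markers (7 of 7 genes) were 22720 to 29670 with vehicle and 31630 to 37290 with P4, and smooth muscle markers (8 of 8) 32460 to 34210 and 37590 to 40280. Skeletal muscle markers (6 of 6) were at 1732 to 2203 and 3464 to 3643, and macrophage markers (5 of 6) at 3746 to 4004 and 4162 to 4408. All 4 of these sums were higher with P4 and apart. By mean log2 signal the macrophage list overlapped, at 8.001 to 8.149 and 8.109 to 8.189, and its median log2 change was 0.001. Only Acta1 passed among 9 skeletal muscle probe sets, 5 of which had a mean signal below 145.7. The epithelial and endothelial sums overlapped, although Tspan8, Krt7 and endothelial Cldn5 fell. The mean log2 signals of these 2 lists were lower with P4 and apart. They were 8.781 to 8.909 against 8.983 to 9.085 for epithelium, and 9.005 to 9.174 against 9.186 to 9.23 for endothelium. Median log2 changes were −0.11 and 0.03. In PRKO uteri at 40 h the stromal and smooth muscle sums were likewise higher with P4 and apart. They were 25260 to 26030 with vehicle and 26490 to 28580 with P4, and 30640 to 31190 and 32380 to 34110. The PRKO macrophage sum was lower with P4 and apart, at 3317 to 3669 and 3153 to 3316, though its mean log2 signal overlapped. The PRKO skeletal muscle, epithelial and endothelial sums overlapped. The part of these markers in the carriers' values was not tested.

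**Figure D3:**
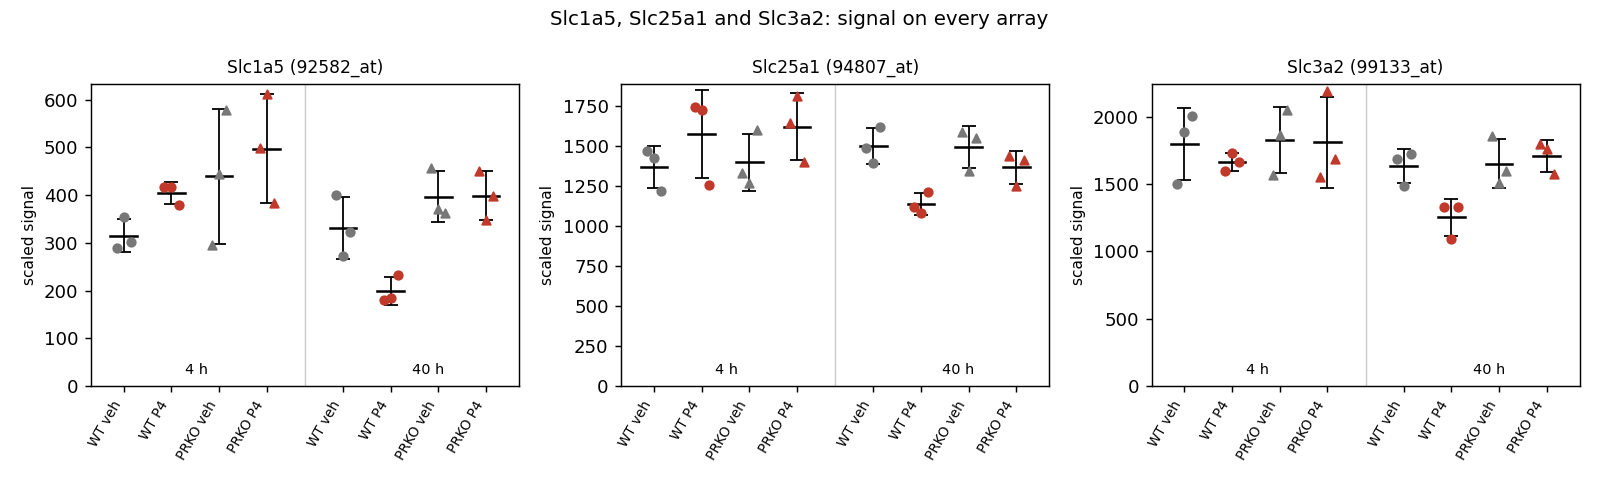
Scaled signal (arbitrary units, from 0) of Slc1a5, Slc25a1 (the probe set at −0.39) and Slc3a2 on each of the 24 arrays; circles are wild type and triangles PRKO, grey is vehicle and red P4, bars are group means and whiskers 1 SD of 3 arrays. At 40 h the wild-type P4 arrays lie below the vehicle arrays in each of these 3 probe sets, and the PRKO arrays overlap.

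On the higher side, late differences were small. Slc25a17, a carrier of cofactors in the peroxisome membrane, gave 889, 1001 and 977.6 with vehicle and 1060, 1143 and 1234 with P4. The groups did not overlap, and the difference was 0.25 ± 0.09 (adjusted p = 0.206). Slc25a4, an ADP and ATP exchanger of the mitochondrial inner membrane, gave 1595, 2128 and 2160 against 2412, 2153 and 2387, at 0.25 ± 0.12 (adjusted p = 0.426). Its P4 arrays overlapped with the vehicle arrays. Slc39a4, negative at 4 h, was at 0.24 ± 0.14 (adjusted p = 0.538), and the change between the 2 times of 0.73 ± 0.19 did not pass (adjusted p = 0.113). The other probe set of this gene was at 0.09 ± 0.09 at 40 h, with a change between the times of −0.02 ± 0.13.

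The test of a different wild-type P4 effect at the 2 times was passed by 0 of the 166, against 0.475% of all probe sets, and by limma without adjustment 16 had a p below 0.05 (9.64%, against 6.39%). For the 4 genes that passed at 4 h, the changes from the early to the late effect were −0.54 ± 0.13 for Slc31a1 (adjusted p = 0.081), −0.51 ± 0.15 for Slc29a1 (adjusted p = 0.172), −0.38 ± 0.09 for Slc27a2 (adjusted p = 0.0757) and 0.33 ± 0.13 for Slc15a2 (adjusted p = 0.559). Each pointed back toward 0, and a return to the vehicle level was not shown by this test.

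**Figure D4:**
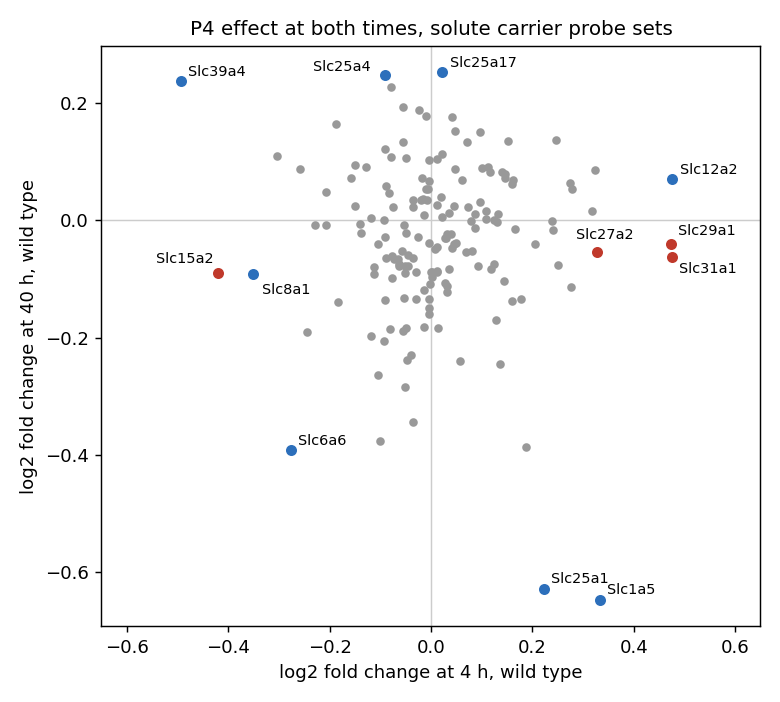
Log2 fold change of P4 against vehicle in wild-type uteri at 4 h (horizontal) and 40 h (vertical) for the 166 probe sets; red points passed at 4 h, blue points are other carriers described in the text, and grey points are the rest. Slc31a1, Slc29a1 and Slc27a2 lie at 0.33 to 0.47 on the horizontal axis and near 0 on the vertical one, and Slc1a5 and Slc25a1 lie lowest at 40 h.

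In PRKO uteri P4 gave no call among the 166 at 4 h or 40 h, and 0 of all probe sets passed either test. By limma without adjustment 5 members had a p below 0.05 at 4 h (3.01%, against 1.90% of all probe sets) and 18 at 40 h (10.8%, against 6.69%). Groups did not overlap for 15 members at 4 h, or 9.04%, against 4.31% of all probe sets. At 40 h they did not overlap for 44, or 26.5%, against 22.3% of all. Of the 166, 33 were apart on the lower side, or 19.9%, against 16.4% of all probe sets. All probe sets leaned the same way, with 63.4% negative against 65.7% of the family. The bile acid carriers were negative in 6 of 6 probe sets, with a median of −0.16, and the phosphate, sulfate and carboxylate carriers in 5 of 5, with a median of −0.17. The highest PRKO value at 40 h was that of Slc8a1, at 0.31 ± 0.11 (adjusted p = 0.703), and Slc15a2 gave 484.8, 469.5 and 426.9 with vehicle and 541.2, 554.8 and 534 with P4, or 0.23 ± 0.09 (adjusted p = 0.703).

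The difference between wild type and PRKO in the P4 effect was passed by 0 members at 4 h, against 0.0966% of all probe sets, and by 0 at 40 h, against 0.105%. By limma without adjustment 12 members (7.23%, against 3.49% of all) had a p below 0.05 at 4 h, and 14 (8.43%, against 9.10%) at 40 h. So the data hold a wild-type change for 4 carriers at 4 h and no shown difference from PRKO for any of them. The largest values of this difference at 4 h were 0.74 ± 0.25 for Slc12a2 (adjusted p = 0.72) and −0.67 ± 0.19 for Slc39a4 (adjusted p = 0.427). The other Slc39a4 probe set had the opposite sign, at 0.18 ± 0.13.

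Without hormone, PRKO and wild-type uteri differed in no carrier past the threshold. In vehicle uteri 0 of 166 passed at 4 h, against 0.185% of all probe sets, and 0 at 40 h, against 0.0644%. By limma without adjustment 12 (7.23%, against 5.02% of all) had a p below 0.05 at 4 h, and 7 (4.22%, against 3.08%) at 40 h. Groups did not overlap for 9 members at 4 h (5.42%, against 6.05% of all probe sets) and for 17 at 40 h (10.2%, against 10.3%). Both times showed lower PRKO arrays for Slc25a48 and Slc39a4, as 0.427% of all probe sets did. The 3 genes that follow were chosen after their values were seen.

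Slc25a48 encodes a member of the mitochondrial carrier family. At 4 h vehicle arrays gave 301.7, 354.7 and 328.5 in wild type and 184.4, 265.8 and 209.8 in PRKO. At 40 h they gave 435.8, 348.6 and 278.3 in wild type and 220.6, 229 and 202.7 in PRKO. The PRKO arrays were lower at both times, by −0.53 ± 0.13 (adjusted p = 0.165) and −0.61 ± 0.13 (adjusted p = 0.0951). With P4 the arrays gave 381.9, 416.8 and 411.3 in wild type and 179.8, 208 and 210.5 in PRKO at 4 h, and 426.3, 355.7 and 323.4 against 244.1, 228.7 and 260.6 at 40 h. The genotypes were therefore apart on every array, with all 12 wild-type arrays between 278.3 and 435.8 and all 12 PRKO arrays between 179.8 and 265.8. It was the single member with such a separation, which 0.0644% of all probe sets had in the same direction.

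Slc39a4 had PRKO vehicle arrays at 931.2, 949.5 and 1024 at 4 h, against the 1174 to 1318 of wild type. At 40 h the arrays gave 1824, 1378 and 1308 in wild type and 1096, 995.3 and 797.6 in PRKO. The differences were −0.36 ± 0.14 (adjusted p = 0.732) and −0.62 ± 0.14 (adjusted p = 0.128). Its other probe set was at 0.06 ± 0.09 and 0.17 ± 0.09, so the probe sets of this gene disagree. The zinc-binding protein Mt2, a metallothionein and no member of the family, was lower in PRKO vehicle uteri by −1.02 ± 0.18 at 4 h (adjusted p = 0.0145) and −0.95 ± 0.18 at 40 h (adjusted p = 0.0485).

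Slc23a1, a sodium-dependent carrier of ascorbate, was dim, with a mean at percentile 10.1. Vehicle arrays at 40 h gave 81.23, 108.1 and 80.95 in wild type and 56.67, 56.79 and 58.15 in PRKO. The groups did not overlap, and the difference was −0.45 ± 0.09 (adjusted p = 0.0822). At 4 h the arrays overlapped, at 72.42, 81.55 and 67.94 against 58.6, 70.93 and 55.27. Several marker sums moved with genotype in vehicle uteri at 40 h. Lower in PRKO and apart from wild type were the epithelial sum (8236 to 9184 against 10120 to 11250), the macrophage sum (3317 to 3669 against 3746 to 4004), the smooth muscle sum (30640 to 31190 against 32460 to 34210) and the endothelial sum (4470 to 4804 against 4860 to 4923). By mean log2 signal the epithelial and smooth muscle lists were also apart, and the macrophage and endothelial lists overlapped. The brown adipose sum (4 of 4 genes) was higher in PRKO by a narrow margin, at 1102 to 1238 against 1002 to 1101. Of its 5 probe sets, 3 had a mean signal below 145.7, and the median log2 difference was −0.02. The mean log2 signal of this list overlapped, at 7.501 to 7.547 in PRKO and 7.473 to 7.553 in wild type. At 4 h the macrophage sum was the one apart, at 3114 to 3214 in PRKO against 3351 to 4562. Its mean log2 signal overlapped, at 7.847 to 7.921 against 7.872 to 8.347. The part of these markers in the values of the 3 carriers was not tested.

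**Figure D5:**
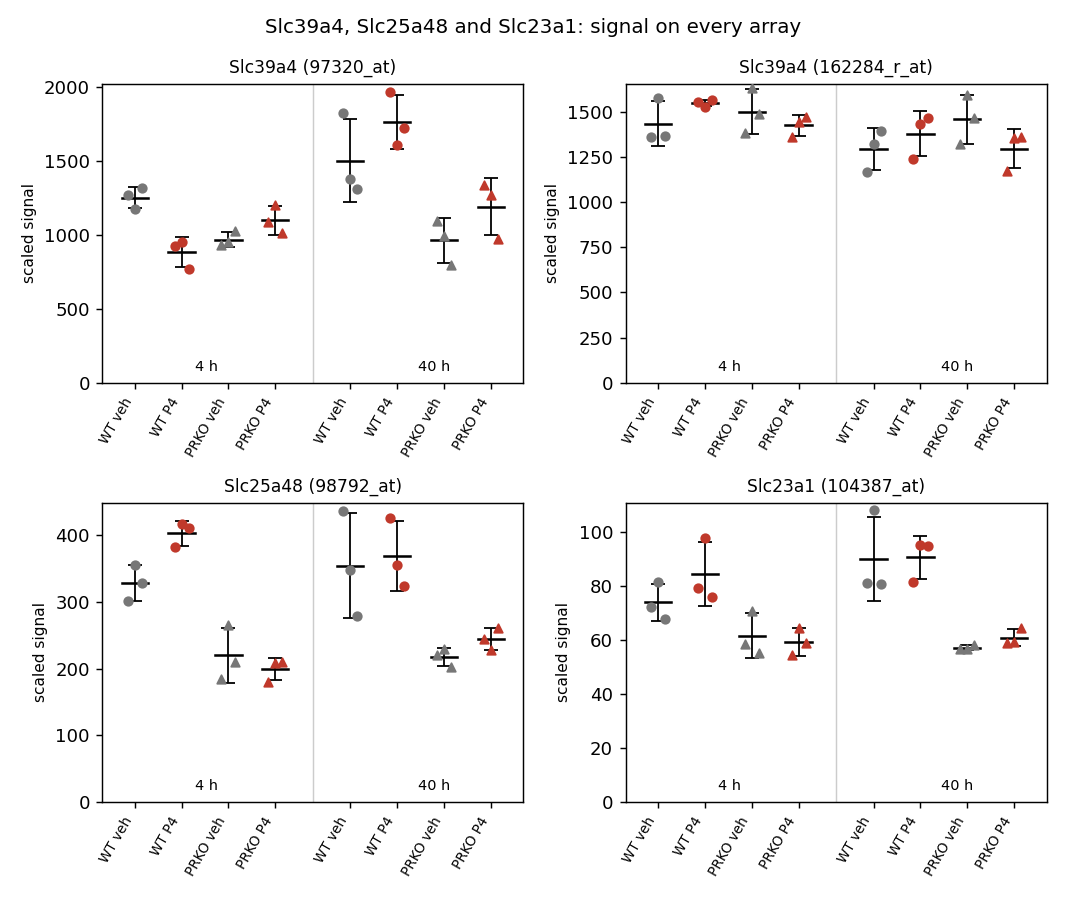
Scaled signal (arbitrary units, from 0) of Slc39a4 (both probe sets), Slc25a48 and Slc23a1 on each of the 24 arrays; circles are wild type and triangles PRKO, grey is vehicle and red P4, bars are group means and whiskers 1 SD of 3 arrays. All PRKO arrays of Slc25a48 lie below all wild-type arrays, and the 2 probe sets of Slc39a4 differ in pattern.

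Genes that work with solute carriers were counted by list. Among 18 probe sets of 13 partner and regulator genes, Sgk1 rose at 4 h in wild-type uteri by 1.09 ± 0.18 (adjusted p = 0.0032) and Emb fell by 0.58 ± 0.12 on the log2 scale (adjusted p = 0.0132). Sgk1 is a kinase that acts on ion channels and carriers, and Emb is embigin, a partner of monocarboxylate carriers. The early Sgk1 effect exceeded the late one, with a change between the times of −1.41 ± 0.26 (adjusted p = 0.00976). No monocarboxylate carrier passed. Their 3 probe sets were at −0.21 (Slc16a7), −0.04 (Slc16a1) and −0.01 (Slc16a8) at 4 h, when 49.4% of all probe sets were negative.

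None of 8 probe sets for amino acid response genes passed in any of the 9 comparisons. Among 11 probe sets for metal handling genes, ceruloplasmin (Cp), a copper-binding oxidase of iron, fell by 0.50 ± 0.10 on the log2 scale at 40 h (adjusted p = 0.0109), and Mt2 differed by genotype as given above. None of the 28 probe sets for ABC transporters, and none of the 3 for Slco organic anion carriers, passed at either time in wild-type uteri. Of the 9 probe sets for the Slc2a glucose carriers, 1 passed at 4 h and 2 at 40 h, all for Slc2a3.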

How the data were processed

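Whole-uterus RNA of 8 groups was hybridized to Affymetrix mouse arrays, 3 per group. The authors deposited linear signal intensity for every probe set. MAS5 is named in the submitters' processing notes, while no version, setting or between-array step is given in any source used here. Genes were named from the platform annotation, and all 166 members matched RefSeq by gene ID. Control probe sets were left out. Arrays were rescaled by 0.954 to 1.03 so that their 2%-trimmed means equalled 500, and values were taken as log2 of signal plus 32, with no filter on dim signal. Precision is limited by having 3 arrays a group.

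One model of group means over all 24 arrays was fitted with limma (version 3.58.1, in R 4.3.3), using an intensity trend and two-sided moderated tests on 16 residual and 4.98 prior degrees of freedom. Of 9 comparisons, 4 set P4 against vehicle, 2 the P4 effect of wild type against that of PRKO, 2 the genotypes in vehicle uteri, and 1 the late wild-type effect against the early one. P-values were adjusted by Benjamini-Hochberg over 12422 probe sets within a comparison. Several comparisons share arrays, so their results are not independent. The procedure was tested on simulated data. No 2 arrays held identical values, and arrays correlated at 0.966 to 0.995.

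Replicate numbers come from the sample titles, which state no pairing. For P4 in wild type at 4 h, deviations from the group means correlated within every number (0.114, 0.516 and 0.35), so values with the number as a block are given there where a call changes. At 40 h these correlations were 0.116, 0.142 and 0.0686. At both times each wild-type P4 array correlated best with the vehicle array of its own number. Between the genotypes in vehicle uteri the correlations ran from −0.071 to 0.599. For 40 h and for vehicle uteri the block is given only for the counts in the closing section, where it added calls.

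Named genes were those that passed a P4 comparison, the 3 highest and 3 lowest by fold change at each time in wild type, those whose wild-type groups did not overlap in the same direction at both times, and other probe sets of these genes. Members, lists and rules were chosen with earlier results of these data known. Alternatives tried were scaling, offset, a filter on dim signal, the block, arrays of 1 time alone, arrays left out and an adipose covariate.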

Additional observations from a re-analysis of the deposited data

Results flagged for a closer look

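Slc16a8, a monocarboxylate carrier known from retinal pigment epithelium, had its P4 arrays on opposite sides of the vehicle arrays in the 2 genotypes at 40 h. Wild-type arrays gave 379.8, 384.1 and 360.5 with vehicle and 433.5, 425.4 and 426.5 with P4, and PRKO arrays 395.8, 419.3 and 433.6 with vehicle and 364.1, 361.7 and 374.7 with P4. Every P4 array was above its vehicle arrays in wild type and below them in PRKO, and the effects differed by 0.35 ± 0.11, which did not pass (limma, adjusted p = 0.353). The gene was singled out by this pattern after its values were seen. At 40 h the groups did not overlap for 19.8% of all probe sets in wild type and 22.3% in PRKO. The share of all probe sets apart on opposite sides in the 2 genotypes, in either order, was not counted.

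Slc15a2 had the opposite order at 40 h, with P4 arrays below the vehicle arrays in wild type and above them in PRKO. The effects differed by −0.32 ± 0.13 (limma, adjusted p = 0.527). Slc1a5 in wild-type uteri was higher with P4 on every array at 4 h and lower on every array at 40 h, and the late effect minus the early one was −0.98 ± 0.26 (limma, adjusted p = 0.115). Groups of 3 arrays are too small for the search for single outlying arrays.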

How the results depend on the processing

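The 28 values followed for named genes were each recomputed under 12 to 20 settings, 439 recomputations in all: 394 kept their direction and their side of the threshold, 23 lost a call, 19 gained one and 3 reversed. The 3 reversed with the adipose score as a covariate at 40 h in wild type, where Slc1a5 was 0.013 in place of −0.65, Slc25a1 (the probe set at −0.63) 0.16 and Slc15a2 3.7e-05 in place of −0.09, and the cause was not tested. Of the counts of carriers that passed, the 4 at 4 h in wild type became 0 on arrays of 4 h alone and 0 without the arrays of high Gapdh ratio, both with 29 of all probe sets called, and ranged from 0 to 4 with each array left out. With the replicate block it was 6, adding Slc12a2 and Slc39a4, and with a block over the wild-type arrays of 4 h alone, added after the data were seen, 4. The 0 at 40 h in wild type became 3 on arrays of 40 h alone (Slc1a5, Slc22a4 and Slc25a1, all lower) and stayed 0 with each array left out. With the replicate block it was 3 (Slc1a5 and Slc3a2 lower, Slc25a17 higher). The titles state no pairing, and deviations in this comparison correlated within the numbers at 0.116, 0.142 and 0.0686. The difference between genotypes at 4 h gave 1 with the replicate block (Slc12a2), 1 on values as deposited (Slc27a2), and 0 to 1 with each array left out (Slc31a1, without wild-type P4 replicate 3). The difference between times gave 1 with quantile normalization and 1 as deposited (Slc27a2), 2 with the replicate block (Slc31a1 and Slc39a4), and 0 to 2 with each array left out. Vehicle uteri at 40 h gave 1 with quantile normalization and 1 as deposited (Slc23a1), 3 with the block (Slc23a1, Slc25a48 and Slc39a4) and 0 to 1 with each array left out. At 4 h they gave 1 with the block (Slc25a48). The counts for P4 in PRKO at either time, and for the genotype difference at 40 h, were 0 under every setting run. The offset and the filter on dim signal moved no count of carriers by over 1.5 times.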
